A study of Panicum sumatrense with 28 samples.

Results

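The 80 transcripts described here were those with the clearest lead of vegetative stem over every other tissue in a tissue atlas of Panicum sumatrense, the cereal called little millet, out of 101935 assembled transcripts. Each transcript was scored as the lower of its 2 vegetative stem values plus 1, divided by its highest value in the other 26 libraries plus 1. A score above 1 was reached by 1323 transcripts, and the 80 with the highest scores were kept. The stem values therefore chose these transcripts, so the lead of the stem is a description and was not tested.

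All libraries came from 1 genotype, JK-8, grown in a chamber with equal hours of light and dark. By age in days after sowing, they were germinating seed (2), the embryonic root or radicle and the embryonic shoot or plumule (both 3), young root and young leaf (both 13), crown meristem (26), vegetative stem (48), and the flower head as early (61), mid (73) and late (85) panicle. Of these, 8 tissues had 3 libraries, and vegetative stem and young root had 2. Nothing in the labels says that the libraries of a tissue came from separate plants, so p-values cover only how far these libraries differ from each other, which may be technical. Values are TPM (the share of a library's reads that fall on a transcript, corrected for its length) that the authors scaled by a TMM factor per library. The sums of the libraries ran from 660796 to 3202140 on this scale, and the depth is unknown.

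The stem of a grass carries leaves and flower heads on a column of nodes and internodes. Internodes lengthen from dividing zones at their base, and their vascular bundles and the fibres around them thicken their walls as they mature. In rice, the nodes are known as the place where minerals taken up by the root are passed on to leaves and grain. The crown meristem at the base of the shoot gives rise to the stem, and the plumule holds the first shoot apex. The transcripts are known by their assembly identifiers only, so no role is given to any of them, and the label of the stem was not checked against marker genes. In an identifier, the DN and c parts together number a cluster of reads, g a gene within it and i an isoform.

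The stem-led transcripts were mostly of low or moderate level. Their mean over the 2 stem libraries ran from 1.14 to 2601 with a median of 9.11; 9 reached 100, 30 lay from 10 to 100 and 41 lay below 10. The scores ran from 4.04 down to 2.12, with a median of 2.50. The 80 together made up 0.860% and 0.943% of the sums of the stem libraries. Their share was 0.142% to 0.196% in crown meristem, 0.109% to 0.206% in early panicle and 0.105% to 0.160% in plumule. It was at most 0.0485% in the other tissues and lowest in young root, with 0.0104% and 0.0122%. A share of a library's sum does not depend on the scaling factor. Because tissues were sequenced in bulk, fewer cells of a type and less RNA per cell cannot be told apart.

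**Figure D1:**
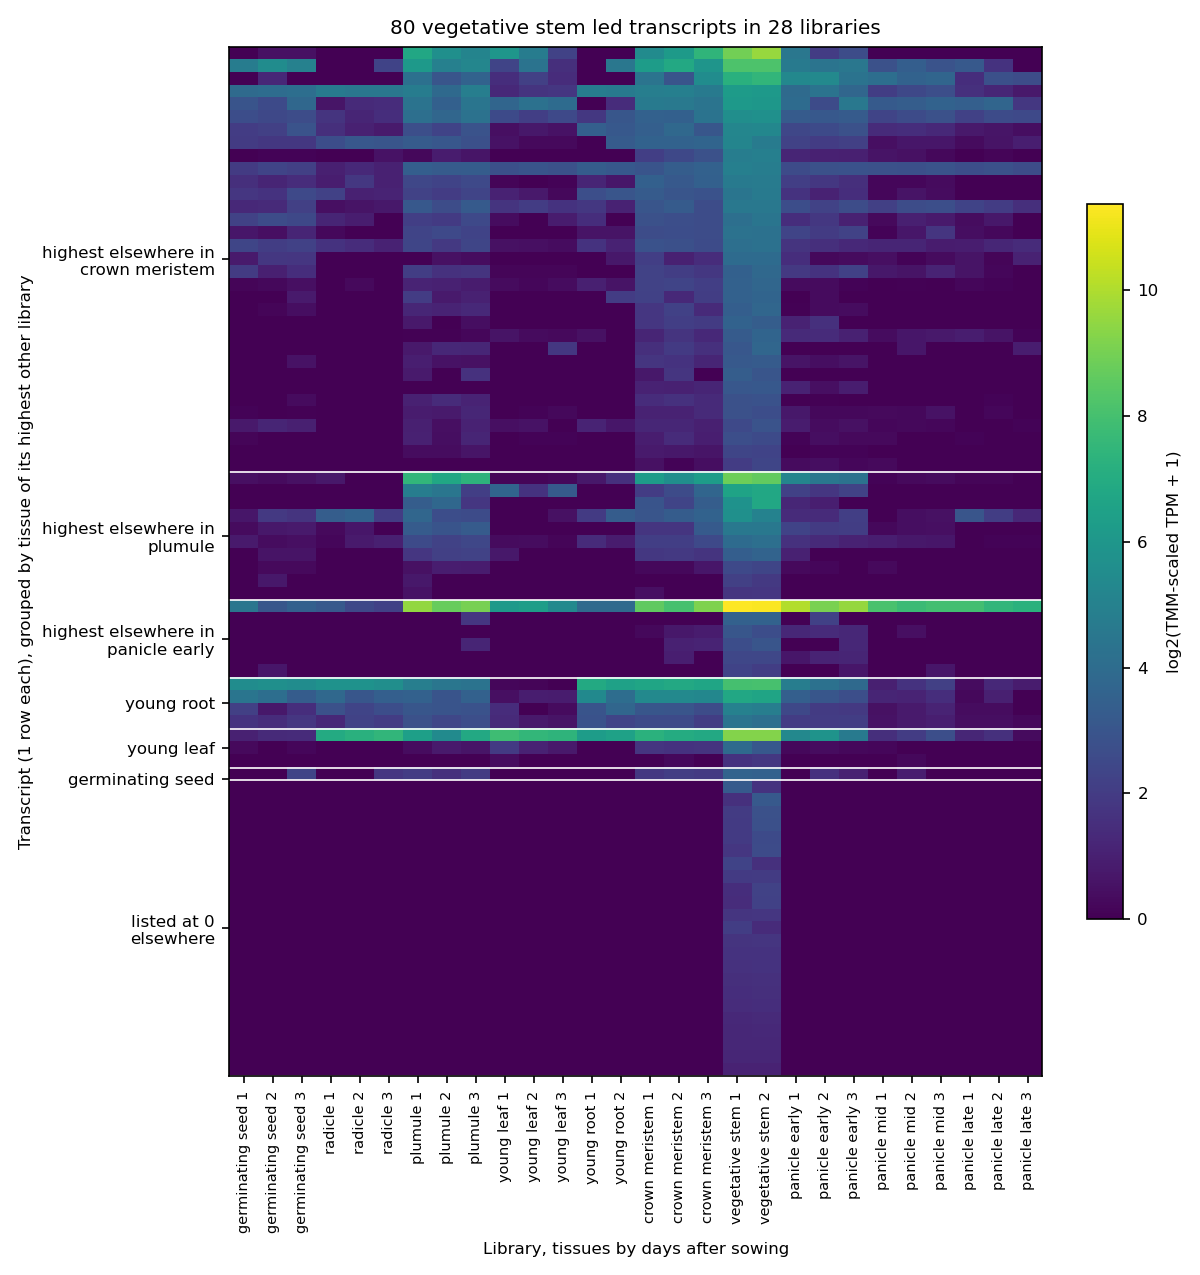
Level of the 80 stem-led transcripts (rows) in the 28 libraries (columns, tissues in order of days after sowing), as log2(TMM-scaled TPM + 1); rows are grouped by the tissue of their highest library outside vegetative stem. The stem columns are brightest in every row, by the choice of the rows. Crown meristem, plumule and early panicle are the next brightest for most rows, and the bottom 23 rows are at 0 in the 26 other libraries.

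The transcripts were split by whether any library outside the stem was above 0. With the depth unknown, this line does not mark a difference in kind. There were 57 with a value above 0 in at least 1 other library, and 23 listed at 0 in all 26. Among the 57, the highest other library was a crown meristem library for 33, a plumule library for 10, an early panicle library for 6, a young root library for 4, a young leaf library for 3 and a germinating seed library for 1. By tissue mean, crown meristem came second to the stem for 35 of the 57, plumule for 13, early panicle for 6, young leaf for 2 and young root for 1. The lower stem value was 2.16 to 7.52 times the highest other library, with a median of 2.84. These rankings are on the TMM scale, and the sums of the libraries differ.

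Relative to the stem mean, the median tissue mean of the 57 was 2.31% in germinating seed, 0% in radicle, 14.9% in plumule, 1.004% in young leaf, 0% in young root, 22.0% in crown meristem, 7.48% in early panicle, 1.42% in mid panicle and 0.199% in late panicle. Levels outside the stem were thus highest in crown meristem, plumule and early panicle, and lowest in radicle, young root and late panicle. A mean of at least 1 was reached by 56.25% of the 80 in crown meristem, beside 36.3% of the whole table. In plumule and early panicle it was 43.75% and 42.5%, beside 46.5% and 37.2%. In radicle, young root and late panicle it was 21.25%, 23.75% and 13.75%, beside 30.7%, 32.0% and 34.5%. The 23 at 0 outside the stem lower the members' shares. Over the whole table, too, plumule had the highest share and radicle the lowest. Of the 57, 27 were at 0 in all 5 radicle and young root libraries, and 26 were at 0 in all 3 late panicle libraries. In crown meristem, 3 of the 57 were at 0. Only 9 had a value above 0 in all 28 libraries, and 2 of these, TRINITY_DN6732_c0_g1_i33 and TRINITY_DN3411_c1_g1_i8, had at least 1 in each of the 26 others. TRINITY_DN3411_c1_g1_i8 is named after its values were seen.

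**Figure D2:**
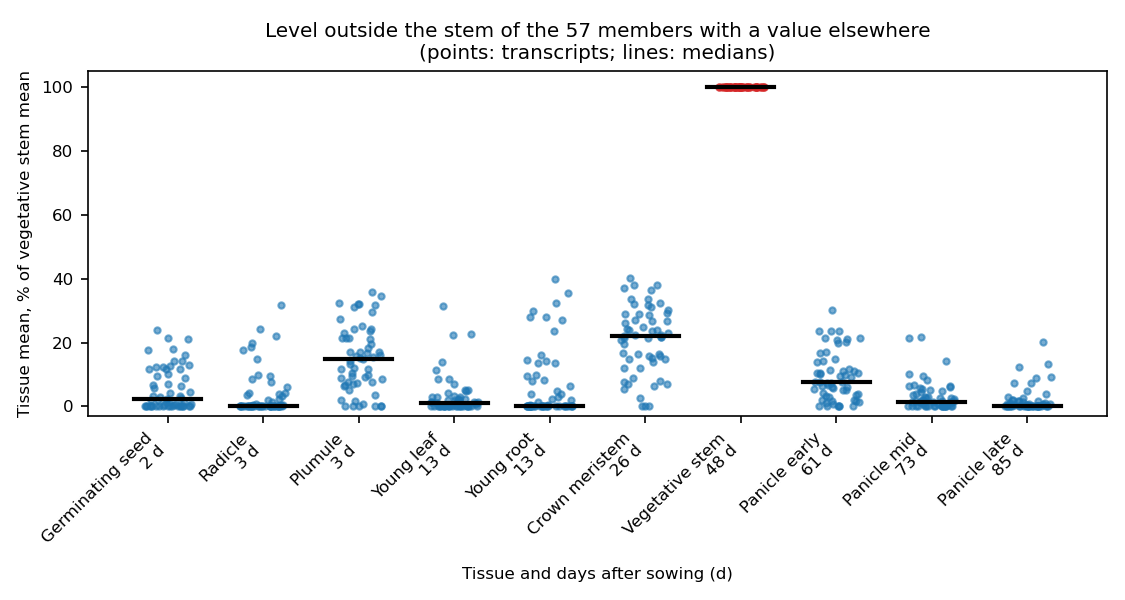
Tissue means of the 57 stem-led transcripts with a value elsewhere, as a percentage of their vegetative stem mean (y axis), by tissue and days after sowing (x axis); each point is a transcript and the black line is the median. Crown meristem has the highest median outside the stem (22.0%), followed by plumule (14.9%) and early panicle (7.48%).

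By the library codes in the sample descriptions there were 2 series, one with 15 libraries (here A) and one with 13 (here B). Both stem libraries are in B, as are all panicle libraries, radicle library 3 and young root library 2. The highest other library was in A for 50 of the 57 and in B for 7. Crown meristem, plumule, young leaf and germinating seed lie wholly in A, and the share over all transcripts was not determined. In the tissues with libraries in both, the 80 transcripts summed to 294 in B radicle library 3, against 261 and 275 in A libraries 1 and 2, and to 333 in B young root library 2, against 336 in A library 1. The 5 most abundant held 50.2% to 62.2% of these sums in radicle and 27.3% and 38.7% in young root. The other 75 summed to 111 in B, against 130 and 123 in A, in radicle, and to 204 in B, against 244 in A, in young root, so they were lower in the B library of both tissues.

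The most abundant stem-led transcript was TRINITY_DN6732_c0_g1_i33, with 2642 and 2559.9 in the stem libraries. Next came early panicle with 1060.3, 539 and 752, plumule with 726, 420.3 and 531, and crown meristem with 383, 263 and 576. Mid panicle had 278, 216 and 245, and late panicle 239, 178 and 150.05. The values of early panicle, plumule and crown meristem overlap, those of mid and late panicle overlap, and the lowest crown meristem library lies within the mid panicle range. It was low in young leaf (70.5, 79.5 and 41.1), in germinating seed (20.8, 7.24 and 10.3), in young root (14.1 and 14.4) and in radicle (8.09, 4.58 and 3.63). The 5 most abundant transcripts held 74.7% and 74.3% of the summed level of the 80 in the stem libraries.

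TRINITY_DN44794_c0_g1_i8 had 498 and 772 in the stem, against 43.3, 72.4 and 174 in crown meristem, 113, 50.1 and 33.9 in plumule, and 62.5, 26.6 and 3.75 in young leaf. It was listed at 0 in the radicle, young root, mid panicle and late panicle libraries, and at most at 22.0 in early panicle. It was thus found mainly in shoot tissues, and its libraries varied widely within each of them.

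TRINITY_DN2066_c0_g1_i7 had 603 and 621 in the stem, and in radicle, young leaf and young root it was the highest of the 5 in every library. It had 229, 183 and 167 in young leaf, 122, 147 and 176 in radicle, 152, 125 and 115 in crown meristem, 84.6, 42.2 and 114 in plumule, 77.2 and 90.5 in young root, and 38.9, 56.0 and 24.4 in early panicle. Its values in seed (1.054, 1.57 and 1.65), mid panicle (1.91, 3.07 and 5.67) and late panicle (1.36, 2.02 and 0.274) lay below all of these.

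TRINITY_DN4141_c0_g1_i10 had 459 and 402 in the stem, against 177, 107 and 164 in plumule, 77.99, 48.6 and 77.9 in crown meristem and 35.6, 21.4 and 18.6 in early panicle. No library of seed, radicle, young leaf, young root, mid panicle or late panicle passed 1.96. This grouping of the tissues was made after the values were seen. TRINITY_DN60889_c0_g1_i1 had 290.4 and 293 in the stem, against 76.0, 115 and 59.8 in crown meristem and 70.3, 29.9 and 36.0 in plumule. It was uneven in young root, with 0 and 21.9.

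**Figure D3:**
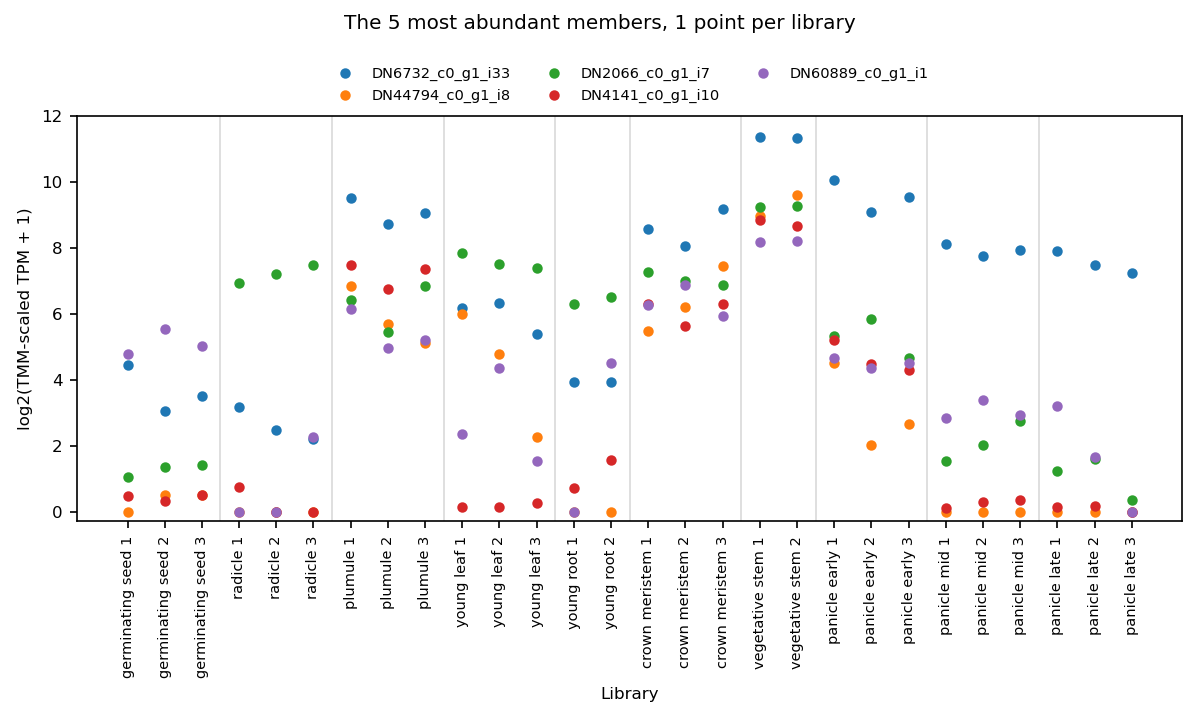
The 5 stem-led transcripts with the highest stem means, as log2(TMM-scaled TPM + 1) on the y axis, 1 point per library in order of days after sowing (x axis). All have their highest points in the 2 stem libraries, by the choice of the transcripts. TRINITY_DN2066_c0_g1_i7 is at 77.2 or more (before the log) in both root tissues, and TRINITY_DN4141_c0_g1_i10 is near 0 there.

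By score, TRINITY_DN47685_c0_g1_i1 ranked first, with 55.1 and 113 in the stem, 9.17, 12.9 and 2.48 in plumule and 6.68, 4.09 and 9.35 in crown meristem. It was at most 1.36 in early panicle and at 0 in the other 6 tissues. TRINITY_DN1581_c0_g1_i2 ranked second, with 27.2 and 28.9 in the stem, 3.32, 4.49 and 6.03 in crown meristem and at most 1.23 elsewhere. TRINITY_DN29606_c0_g1_i1, rank 5, was listed above 0 in 3 tissues: the stem (7.57 and 7.84), crown meristem (1.15, 1.048 and 1.23) and early panicle (1.15, 0.370 and 0.878). TRINITY_DN19691_c0_g1_i2, rank 8, had 14.5 and 14.9 in the stem, 3.28, 1.08 and 1.73 in crown meristem, and 0.768, 2.54 and 2.46 in seed. The other 6 of the first 10 were listed at 0 outside the stem, among them TRINITY_DN76196_c0_g1_i1 with 2.95 and 6.09, TRINITY_DN110678_c0_g1_i1 with 2.84 and 4.92 and TRINITY_DN169660_c0_g1_i1 with 2.82 and 2.91 in the stem. The remaining 3 were TRINITY_DN97619_c0_g1_i1 (2.78 and 5.75), TRINITY_DN120793_c0_g1_i1 (2.47 and 5.09) and TRINITY_DN144664_c0_g1_i1 (2.41 and 2.48), so library 2 was about as high as library 1 in some and well above it in others.

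A smaller set had its highest other library in young root. Of these, TRINITY_DN10708_c1_g1_i6 had 260.1 and 267 in the stem, 121 and 89.8 in young root and 103, 114 and 100.5 in crown meristem. It was near 0 in young leaf (0.141, 0.131 and 0). TRINITY_DN6523_c0_g1_i6, with the highest score of the set, had 19.9 and 16.7 in the stem and 6.29 and 4.003 in young root, which overlap its plumule values of 6.17, 4.34 and 5.70. The 2 others, named because the set is small, were TRINITY_DN5309_c0_g1_i1 with 112 and 99.3 in the stem, against 41.7 and 15.8 in young root, and TRINITY_DN14425_c0_g1_i2 with 31.3 and 27.96 in the stem, against 6.83 and 12.4 in young root. The young root libraries sum to 2753440 and 3202140 on the TMM scale, against 711327 to 736450 in crown meristem. As a share of these sums, each of the 4 is lower in young root than in crown meristem. The next tissue can also rest on 1 library. TRINITY_DN36755_c0_g1_i1 had 11.3 and 10.7 in the stem, and its highest other value was 4.04 in seed library 3, with the other seed libraries at 0. TRINITY_DN47875_c0_g1_i1 had 5.50 and 7.10 in the stem and 1.42 in early panicle library 3, with 0 in early panicle libraries 1 and 2.

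The 23 transcripts listed at 0 outside the stem were also low within it. Their stem means ran from 1.14 to 5.32 with a median of 2.41, and their single values from 1.12 to 8.46. Where whole reads are counted, the lowest values of a transcript come in steps of what 1 read is worth, which depends on the transcript's length. The ratios of stem library 1 to library 2 lay near ratios of small whole numbers. In 13 of the 23 it lay at 1 to 1 times a common factor of 0.969, in 5 at 1 to 2, in 2 at 2 to 1, and in 1 each at 4 to 1, 1 to 4 and 3 to 5, the largest deviation being 0.656%. The factor is the median of the ratios near 1 among the 35 transcripts found in both stem libraries and no other, 23 of them these members, so the match at 1 to 1 is partly built in. Within 0.5% of such a ratio of whole numbers up to 5 were 21 of the 23, against 10 of the 57 with values elsewhere. The extremes were TRINITY_DN158960_c0_g1_i1, with 8.46 in stem library 1 and 2.18 in library 2, and TRINITY_DN112998_c0_g1_i1, with 1.96 in library 1 and 8.07 in library 2. Read counts are not in the table, so the number of reads behind these values was not determined.

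**Figure D4:**
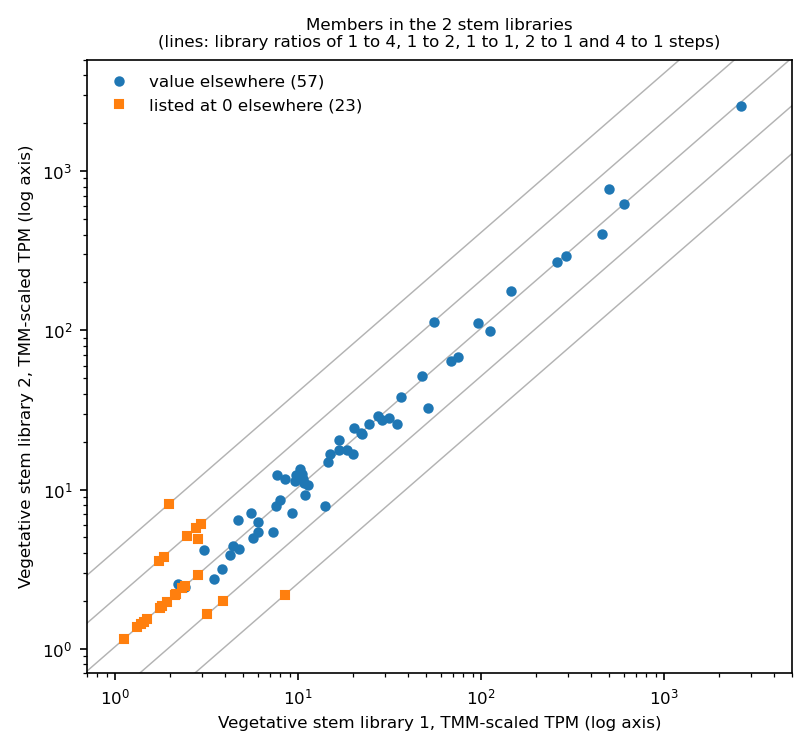
The 80 stem-led transcripts in vegetative stem library 1 (x axis) and library 2 (y axis), TMM-scaled TPM on log axes; grey lines mark ratios of 1 to 4, 1 to 2, 1 to 1, 2 to 1 and 4 to 1 times the common factor of 0.969. Most of the 23 transcripts listed at 0 elsewhere (squares) lie on the lines below a value of 10. The 57 others (circles) lie mostly between the lines of 1 to 2 and 2 to 1 and reach a mean of 2601.

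The 2 stem libraries were more than 1.5-fold apart for 15 of the 80, of which 10 were listed at 0 elsewhere. Library 2 was the higher for 53 and library 1 for 27. Over the transcripts with at least 1 in 2 or more libraries, the stem libraries had a Spearman's rho of 0.874, the highest of any pair within a tissue. Other tissues also had transcripts above 0 in all of their libraries and listed at 0 elsewhere. There were 35 for the stem, against 126 for young root, which likewise has 2 libraries, and from 20 (plumule) to 158 (early panicle) for the tissues with 3.

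At the limit of the list, the last members were TRINITY_DN10708_c1_g1_i6 with a score of 2.15, TRINITY_DN94990_c0_g1_i1 with 2.14 (34.7 and 25.7 in the stem, highest elsewhere 11.5) and TRINITY_DN166107_c0_g1_i1, with 1.12 and 1.16 in the stem and 0 elsewhere. Just outside were TRINITY_DN119926_c0_g1_i1 with 5.17 and 4.22 in the stem (highest elsewhere 1.47), TRINITY_DN9296_c1_g1_i4 with 58.8 and 63.0 (27.7) and TRINITY_DN2211_c0_g1_i3 with 33.8 and 34.6 (15.8). Their scores were 2.11, 2.08 and 2.08, so the limit falls within a gradual range of scores.

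The identifiers show how the transcripts relate within the assembly. The table holds no more than 1 transcript per assembled gene, so other isoforms of the same gene could not appear. No 2 of the 80 shared a DN number, and so none shared a read cluster. For 20 of them the table held other transcripts with the same DN number, 38 in all. Some of these shared the c part too, and so the read cluster, and the others only the DN number. Of the 38, 7 had the stem as their highest tissue by mean, and all 7 shared the read cluster of their member. In cluster DN37002_c0 the member, with 6.04 and 5.39 in the stem, had 2 such relatives. TRINITY_DN37002_c0_g1_i3 had 5.66 ± 0.312 in the stem (SD, n = 2) and 1.65 ± 0.307 in crown meristem (SD, n = 3), and TRINITY_DN37002_c0_g2_i1 had 8.52 ± 0.738 and 1.88 ± 0.622 there. Whether these transcripts are alike enough to share reads was not examined. For the other 31, some in the read cluster of their member and some not, another tissue was highest. The relatives given here are examples chosen after their values were seen. TRINITY_DN1581_c1_g2_i2 shares only the DN number with the stem-led TRINITY_DN1581_c0_g1_i2. It was at 0 in both stem libraries and at 83.1 ± 34.3 in mid panicle (SD, n = 3). TRINITY_DN6523_c0_g2_i1 had 5.12 ± 0.134 in the stem and 348 ± 77.4 in radicle (SD), while its cluster's stem-led transcript had 1.38 to 3.73 in radicle. Of the 23 transcripts listed at 0 outside the stem, 22 were the only transcript with their DN number in the table, as were 60 of all 80. The share over the whole table was not determined.

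Comparisons between the other 9 tissues do not involve the stem and were tested. The rule used the highest value among these libraries, which limits how high a member can be there. On the TMM scale this limit is the same for every tissue. As a share of the library sum it is stricter in radicle and young root. Their libraries sum to 1477080 or more, against at most 1228520 in the other tissues. The fit used the 26 other libraries and the 76158 transcripts that reached 1 in 2 or more of them. Of the 80 members, 50 passed that filter; the 30 others, including all 23 listed at 0, were not tested. Of the 50, 3 passed through the libraries of a single tissue, so a difference of that tissue is partly built in. They were TRINITY_DN25358_c0_g1_i1 through crown meristem, and TRINITY_DN37641_c1_g2_i1 and TRINITY_DN57307_c0_g1_i2 through early panicle. A transcript was called at an adjusted p (limma, Benjamini-Hochberg over all transcripts) below 0.05 and a log2 difference of at least 1 on the log2(value + 1) scale, which understates the change of low transcripts. By limma's F, 47 of the 50 differed among the 9 tissues, beside 60.6% of all tested transcripts. The 3 that did not pass were TRINITY_DN47875_c0_g1_i1, TRINITY_DN23673_c1_g1_i1 and TRINITY_DN43809_c0_g1_i2, named because they are few.

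Crown meristem, the tissue nearest to the stem in level, was higher than young leaf for 38 of 50, beside 13.7% of all transcripts tested, with a median log2 difference of 1.88 (0 over all). It was lower for 0 of 50 by limma, with 0 at an unadjusted p below 0.05, beside 9.02% of all. TRINITY_DN10708_c1_g1_i6 had the largest difference, with 103, 114 and 100.5 in crown meristem, against 0.141, 0.131 and 0 in the leaf libraries. Its log2 difference was 6.62 (SE 0.27, limma adjusted p = 5.5e-13), and the libraries do not overlap. TRINITY_DN4141_c0_g1_i10 differed by 5.90 (SE 0.28). Among the 45 members that reached the filter without the libraries of these 2 tissues, 35 were higher, beside 14.1% of the transcripts kept likewise.

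Early panicle against crown meristem brackets the stem in age. The members were lower in early panicle for 22 of 50, beside 7.12% of all, and higher for 0 of 50 by limma (3 at an unadjusted p below 0.05), beside 7.90%. The median log2 difference was -0.86, against 0 over all. TRINITY_DN44794_c0_g1_i8 fell most, to 22.0, 3.08 and 5.24 in early panicle, against 43.3, 72.4 and 174 in crown meristem (log2 difference -3.31, SE 0.70, limma adjusted p = 0.0017). Among the 39 members that reached the filter without these 2 tissues, 19 were lower, beside 7.45%. These tissues also lie in different library series. With the series as a covariate, which rests on radicle and young root, 17 were lower and TRINITY_DN44794_c0_g1_i8 had an adjusted p of 0.057.

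Within the panicle all libraries are in 1 series. From early to mid panicle, 19 of 50 fell, beside 4.98% of all, and 0 rose by limma (0 at an unadjusted p below 0.05), beside 5.69%. The median log2 difference was -0.74, against 0 over all. TRINITY_DN4141_c0_g1_i10 fell most, to 0.0810, 0.209 and 0.266 in mid panicle, against 35.6, 21.4 and 18.6 in early panicle (log2 difference -4.41, SE 0.28, limma adjusted p = 4.7e-10). The 19 include TRINITY_DN37641_c1_g2_i1 (log2 -1.17) and TRINITY_DN57307_c0_g1_i2 (log2 -1.01), which reached 1 in early panicle alone. Among the 47 members that reached the filter without early and mid panicle, 17 were lower, beside 4.51%. This comparison and the one before it share the early panicle libraries.

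From mid to late panicle few were called: 1 of 50 fell, beside 5.10% of all, and 1 rose, beside 2.79%. TRINITY_DN4308_c0_g1_i2 fell, to 2.01, 1.31 and 0.710 in late panicle, against 3.23, 4.58 and 5.57 in mid panicle (log2 difference -1.23, SE 0.25, limma adjusted p = 0.0022). TRINITY_DN11911_c0_g1_i1 rose, with 6.97, 3.15 and 1.41 in late panicle and 0, 0.327 and 0.407 in mid panicle (log2 difference 1.80, SE 0.48, adjusted p = 0.017). That rise was not called without mid panicle library 1 (1.65, adjusted p = 0.059) or late panicle library 1 (1.36, adjusted p = 0.12). With libraries rescaled to a common sum 9 fell, and with a pseudocount of 0.1 in place of 1 there were 7.

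Root and shoot were compared at 2 ages, as radicle and plumule at 3 days and as young root and young leaf at 13 days. Age and organ therefore cannot be told apart. At 3 days, radicle was lower than plumule for 23 of 50, beside 23.0% of all, and higher for 1, beside 9.77%. The median log2 difference was -0.95, against -0.39 over all transcripts, a shift that became -0.58 with a common sum and -0.05 after quantile normalization, where 15 members were lower. TRINITY_DN4141_c0_g1_i10 had the lowest value of the difference, with 0.674, 0 and 0 in radicle, against 177, 107 and 164 in the plumule libraries (log2 -6.95, SE 0.28, limma adjusted p = 5.4e-14). The transcript higher in radicle was TRINITY_DN10708_c1_g1_i6, with 55.1, 54.2 and 47.6 in radicle and 27.7, 21.3 and 19.4 in plumule. Its log2 difference was 1.18 (SE 0.27, limma adjusted p = 0.0012), and with a common sum it was not called (0.35, adjusted p = 0.37).

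At 13 days young root was higher than young leaf for 8 of 50, beside 12.5% of all, and lower for 7, beside 16.3%, shares near those of all transcripts. At an unadjusted p below 0.05 it was higher for 16 and lower for 7, and with a pseudocount of 0.1 it was higher for 13. The median was 0 for the members and for all. TRINITY_DN10708_c1_g1_i6 had the largest difference, with 121 and 89.8 in young root, against 0.141, 0.131 and 0 in the leaf. On the log2 scale this was 6.59 (SE 0.30, limma adjusted p = 4.2e-13). TRINITY_DN44794_c0_g1_i8 was listed at 0 in both young root libraries and had 62.5, 26.6 and 3.75 in young leaf (limma adjusted p = 0.00012).

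The root minus shoot difference at 13 days minus that at 3 days was tested as an interaction. It was higher at 13 days for 28 of 50, beside 14.2% of all, and lower for 1, beside 7.85%. The median was 1.58 for the members and 0.28 for all transcripts. It uses the same libraries as the 2 comparisons above. Of the 28, 16 were lower in radicle than in plumule and not called at 13 days. Another 6 were called only at 13 days, as higher in young root than in young leaf, and 3 at neither age. TRINITY_DN6732_c0_g1_i33 was lower in the root at both ages, with log2 values of -6.47 at 3 days (SE 0.36, limma adjusted p = 5.9e-12) and -2.03 (SE 0.40, adjusted p = 0.00036) at 13 days, and its interaction was 4.44 (adjusted p = 2.8e-06).

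**Figure D5:**
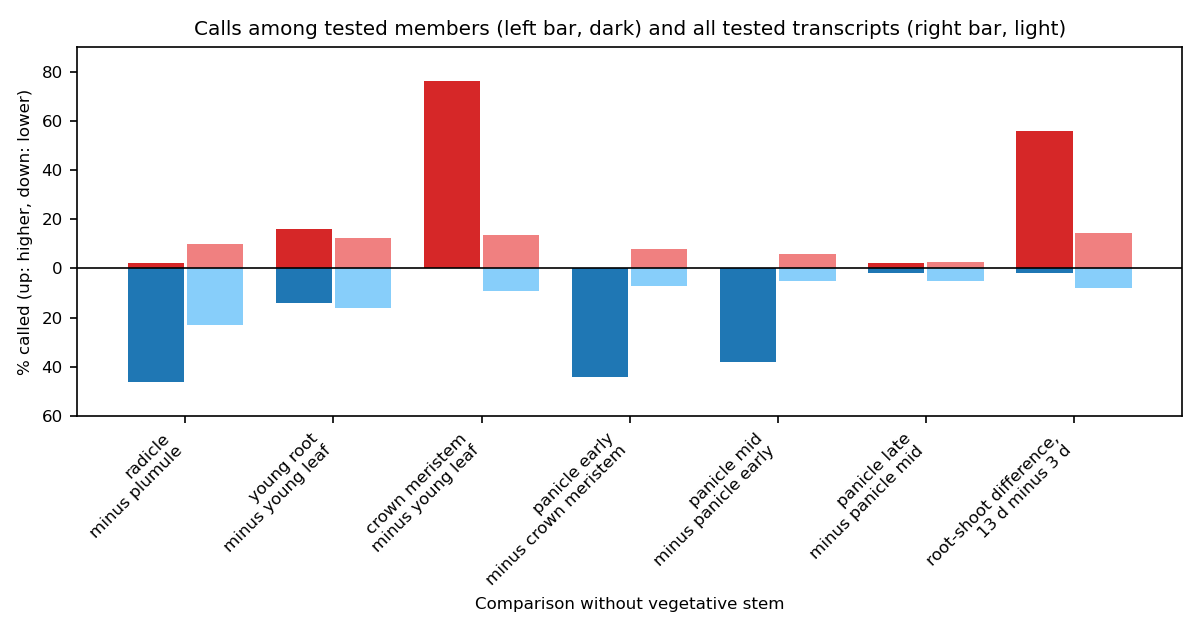
Percentage of the 50 tested stem-led transcripts (left, dark bars) and of all 76158 tested transcripts (right, light bars) called higher (upward) or lower (downward) in comparisons that leave vegetative stem out. The members' bars stand at 76.0% for crown meristem above young leaf and at 44.0% for early panicle below crown meristem, and are close to the light bars for young root against young leaf.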

How the data were processed

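RNA-seq libraries (TruSeq) were made from the 10 tissues. Per the series design text, reads were assembled de novo with Trinity and TPM were estimated with kallisto; the submitters' processing notes name kallisto, CASAVA and Trimmomatic, whose versions the sources used here do not give. RNA was extracted with either of 2 reagents, and which tissue had which is not given. The deposited table holds a non-negative signal, TPM that the authors scaled by TMM, as the table's name says. All 28 value columns matched 1 sample each by the code in its title. Such values keep no read totals, so the depth is unknown and no counting interval was given.

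The members and the lists described were chosen with earlier results of these data known. The highest-scoring transcripts, the 5 most abundant, the leading transcript per next tissue, the extreme called transcripts per comparison whose libraries did not overlap, the extremes of the ratio of the stem libraries and those beside the limit were named by rule. The rule also named members that share a DN number with each other, of which there were none.

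Differences were tested by limma (version 3.58.1, under R 4.3.3) after taking log2(value + 1), with a trend of variance on level, 1 mean per tissue and no covariates, over the 26 libraries other than vegetative stem (17 residual degrees of freedom). The code was tested on simulated data. Everything else used scipy 1.17.1, numpy 2.4.6 and pandas 2.3.3 under Python 3.11.15. Alternatives were other pseudocounts, no filter, a common sum, quantile normalization, all 28 libraries, a block for replicate number, a covariate for library series and leaving out each library, and, chosen after seeing the data, a filter on the tissues not compared. Replicate numbers did not pair libraries.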

Additional observations from a re-analysis of the deposited data

Results flagged for a closer look

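The root minus shoot difference was not the same at 3 and 13 days for part of the stem-led transcripts, by limma's interaction test. The shoot was plumule at 3 days and young leaf at 13 days, so age and organ cannot be told apart. The difference was higher at 13 than at 3 days for 28 and lower for 1 of the 50 tested. Beside these stand 14.2% and 7.85% of all transcripts. TRINITY_DN4141_c0_g1_i10 had the largest interaction (log2 7.91, SE 0.42, adjusted p = 2.2e-11). Its libraries had 0.639 and 1.96 in young root and 0.106, 0.0990 and 0.190 in young leaf, and 0.674, 0 and 0 in radicle and 177, 107 and 164 in plumule. The transcript lower at 13 days was TRINITY_DN2066_c0_g1_i7 (log2 -2.15, SE 0.54, adjusted p = 0.0054), with 77.2 and 90.5 in young root and 229, 183 and 167 in young leaf, and 122, 147 and 176 in radicle and 84.6, 42.2 and 114 in plumule.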

How the results depend on the processing

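The list rests on both stem libraries. With the score computed without stem library 1, 29 of the 80 stayed in the top 80 (2700 transcripts scored above 1), and without library 2, 5 did (3576); over all single libraries left out, 5 to 80 stayed and 1332 to 3576 transcripts scored above 1. A pseudocount of 10 in the score kept 40, and none of the 23 listed at 0 elsewhere, while tissue means kept 34. Transcripts above 1 numbered 2527 with a common sum and 6652 with tissue means. For the tested comparisons, a pseudocount of 0.1 gave 13 higher in young root than in young leaf, 1 higher in early panicle than in crown meristem and 7 lower in late than in mid panicle. A common sum gave 0 higher in radicle than in plumule, 1 higher in early panicle and 9 lower in late panicle. Quantile normalization gave 15 lower in radicle, 1 higher in early panicle and 2 with a lower interaction. With single libraries left out, 1 to 2 were higher in radicle (2 without radicle 1 or plumule 3), and 0 to 1 higher in early panicle than in crown meristem (1 without crown meristem 2 or 3 or early panicle 2). In late panicle 0 to 1 were higher (0 without mid panicle 1 or late panicle 1) and 1 to 3 lower (3 without mid panicle 1, and 2 without plumule 2, crown meristem 2 or 3 or late panicle 2). The other counts of tested members stayed within 1.5 times. Replicate numbers did not pair libraries, since the mean correlation of the deviations of same-numbered libraries was 0.0037, with 3 of 100 pairs above 0.1. With the replicate block, 38 members were higher in crown meristem than in young leaf and 23 lower in radicle than in plumule, as without it. With 2 stem libraries and no read totals, no counting interval could be given for the lowest values. Counting only transcripts that reached 1 in 2 or more libraries of the tissues not compared, an alternative chosen after seeing the data, left every count of tested members within 1.5 times.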
